A study of Mus musculus with 23 samples.

Results

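A set of 10 genes of gut surface defence was followed in the mouse intestinal epithelium: the Reg lectin genes Reg1, Reg3a, Reg3b, Reg3g and Reg4, the serum amyloid A genes Saa1 and Saa2, the hydrogen peroxide-producing oxidase gene Duox2 with its maturation factor gene Duoxa2, and the siderophore-binding lipocalin gene Lcn2. They were picked by symbol, and all 10 are among the 22517 named genes of both deposited tables. Each has a locus entry of its own and was tested by the authors in both comparisons. RNA was sequenced from 9 libraries in 3 groups of 3. Eed-null villus came from adult EedF/F; Villin-CRE mice, in which Cre is driven by the epithelial Villin promoter and removes Eed, a core subunit of the Polycomb repressive complex that writes the H3K27me3 mark. Wild-type villus came from EedF/F; Cre- mice, which carry the floxed alleles but no Cre, so the presence of Cre and the loss of Eed cannot be told apart. ISC are Lgr5-positive intestinal stem cells, sorted for high GFP from Eed+/+; Lgr5-EGFP-IRES-CREERT2 mice. All mice had a mixed B6;129 background, were given 1 to 2 mg tamoxifen on 5 days, and gave tissue that the labels place in the proximal part of the intestine. The tables print 1 RPKM value per group, a read count scaled to gene length and library size. They therefore leave unknown how far the 3 libraries of each group lay apart and how deeply each was sequenced. Error enters only through the authors' q, their p adjusted over all genes tested. Called means tested by the authors with q at or below 0.05.

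Reg proteins are small secreted C-type lectins. Reg3b and Reg3g are released by enterocytes and Paneth cells, bind bacterial surfaces and hold microbes away from the epithelium, and their transcription rises when interleukin 22, made by lymphoid cells, activates STAT3 in epithelial cells. Serum amyloid A proteins are lipid- and retinol-carrying acute-phase proteins that the gut epithelium also makes in response to microbes. Duox2 releases hydrogen peroxide at the apical surface and needs Duoxa2 to leave the endoplasmic reticulum, and Lcn2 starves bacteria of iron by binding enterobactin.

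Eed had 3.00 RPKM in Eed-null villus and 9.17 RPKM in wild-type villus (q = 6.29e-06 in the authors' deposited table), counted over the whole gene. Wild-type villus was called higher than ISC for all 9 enterocyte markers that were tested and lower for all 7 stem cell markers. Among all genes tested in that comparison, 30.5% were called higher and 32.3% lower. Lgr5 had 0.607 RPKM in wild-type villus and 18.3 RPKM in ISC. Villus was frozen after release with EDTA, whereas crypts were also digested enzymatically and sorted to give ISC, so cell type and handling cannot be told apart in that comparison.

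The sequences upstream of the Reg and Saa genes are shown because the members that moved together, and those that did not, are close relatives lying side by side. RefSeq's table of promoters, on build GRCm38.p6, matched all 10 members. Each line gives the 250 bases before the annotated start, 5′ to 3′ on the strand of the gene. In the Reg genes capitals mark TATAAA and the STAT-type motif TTCNNNGAA, which reads the same on both strands.
Reg3b (chr6:78370635-78370884, plus strand): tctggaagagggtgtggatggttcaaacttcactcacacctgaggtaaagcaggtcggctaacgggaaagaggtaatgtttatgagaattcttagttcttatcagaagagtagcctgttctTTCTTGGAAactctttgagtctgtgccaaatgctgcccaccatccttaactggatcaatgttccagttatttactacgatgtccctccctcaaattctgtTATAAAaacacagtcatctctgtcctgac
Reg3g (chr6:78468875-78469124, minus strand): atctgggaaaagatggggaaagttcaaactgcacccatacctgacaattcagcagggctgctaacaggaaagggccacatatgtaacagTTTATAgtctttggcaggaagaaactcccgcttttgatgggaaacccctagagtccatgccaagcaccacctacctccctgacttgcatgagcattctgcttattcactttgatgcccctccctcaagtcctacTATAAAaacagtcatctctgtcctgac
Reg1 (chr6:78425733-78425982, plus strand): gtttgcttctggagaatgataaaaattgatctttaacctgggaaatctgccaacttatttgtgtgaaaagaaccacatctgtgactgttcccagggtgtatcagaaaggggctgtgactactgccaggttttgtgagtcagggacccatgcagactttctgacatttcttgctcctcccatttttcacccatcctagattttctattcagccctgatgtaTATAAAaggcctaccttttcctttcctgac
Reg3a (chr6:78380459-78380708, plus strand): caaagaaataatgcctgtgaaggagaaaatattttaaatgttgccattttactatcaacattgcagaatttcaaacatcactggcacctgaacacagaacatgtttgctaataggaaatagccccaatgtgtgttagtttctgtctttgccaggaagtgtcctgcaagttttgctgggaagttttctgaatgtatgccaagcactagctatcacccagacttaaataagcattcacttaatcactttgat
TATAAA began 29 bases before the start in Reg3b, 27 in Reg3g and 30 in Reg1, and also lay on the opposite strand of Reg3g at 161 bases before the start. With Duoxa2, whose TATAAA began 30 bases before the start, 4 of the 10 members held this motif, against 12.4% of the 32851 RefSeq windows of this length. TTCNNNGAA was found in Reg3b alone, at 129 bases before the start, and in 7.02% of all windows. An NF-kB-type motif of 10 letters, searched on both strands, was in none of the 10 windows and in 1.41% of all windows. A match to any of these motifs is only a run of letters, and none of these counts says whether a factor binds there. The windows of Reg3b and Reg3g were 68.4% identical in a global alignment.

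In the Saa pair, capitals mark the bases that differ between both windows or have no partner in the alignment.
Saa1 (chr7:46742981-46743230, minus strand): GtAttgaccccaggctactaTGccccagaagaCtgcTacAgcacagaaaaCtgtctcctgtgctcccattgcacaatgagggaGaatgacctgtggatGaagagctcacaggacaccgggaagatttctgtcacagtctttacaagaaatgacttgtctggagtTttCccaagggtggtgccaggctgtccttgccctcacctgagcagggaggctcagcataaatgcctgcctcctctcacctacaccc
Saa2 (chr7:46751583-46751832, plus strand): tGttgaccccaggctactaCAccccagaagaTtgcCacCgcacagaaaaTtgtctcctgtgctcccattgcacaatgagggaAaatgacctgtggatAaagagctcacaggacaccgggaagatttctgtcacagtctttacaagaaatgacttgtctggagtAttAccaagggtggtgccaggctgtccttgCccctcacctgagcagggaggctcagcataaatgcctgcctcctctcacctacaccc
The pair was 94.8% identical, with 11 mismatches and 2 gapped positions over 251 aligned columns. The other 43 pairs of member windows were 36.65% to 52.55% identical. Saa1 and Saa2 are near-identical copies in their transcripts as well, so reads may have been divided between them by the authors' counting and their separate values are uncertain.

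Reg3b, Reg1 and Reg3g were among the most abundant transcripts of wild-type villus, at ranks 9, 26 and 49 by listed RPKM. Some of the Reg lectins differed between the villus groups while others were not called. Reg3a and Reg1 fell in Eed-null villus, whereas Reg3b, Reg3g and Reg4 were not called. Reg3a had 30.0 RPKM in Eed-null villus and 331 RPKM in wild-type villus, which is 11.0-fold lower with q listed as 0 in the authors' deposited table. It is a lectin whose human namesake kills Gram-positive bacteria. Reg1, the gene of the pancreatic stone protein lithostathine, had 412 RPKM in Eed-null villus and 1694 RPKM in wild-type villus, 4.12-fold lower with q = 9.65e-12 in the authors' deposited table. By listed RPKM, Reg1 stood at rank 194 in Eed-null villus against rank 26 in wild-type villus, and Reg3a at rank 2357 against rank 249, among 22517 genes. In these bulk samples, fewer cells that make a transcript and less of it per cell cannot be told apart.

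Reg3b, which acts on Gram-negative bacteria, had 3581 RPKM in Eed-null villus and 4579 RPKM in wild-type villus, a log2 difference of -0.35 with q = 0.700 in the authors' deposited table. It stood at rank 12 in Eed-null villus and rank 9 in wild-type villus by listed RPKM. Reg3g, which binds the peptidoglycan of Gram-positive bacteria, had 1440 RPKM in Eed-null villus and 1125 RPKM in wild-type villus, a log2 difference of 0.36 with q = 0.582 in the authors' deposited table. Reg4, a lectin of enteroendocrine and goblet-lineage cells on chromosome 3, had 164 RPKM in Eed-null villus and 127 RPKM in wild-type villus, a log2 difference of 0.37 (q = 0.378 in the authors' deposited table). These differences carry no interval, since the tables print no standard error, and a q above 0.05 does not show that the levels were equal.

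**Figure D1:**
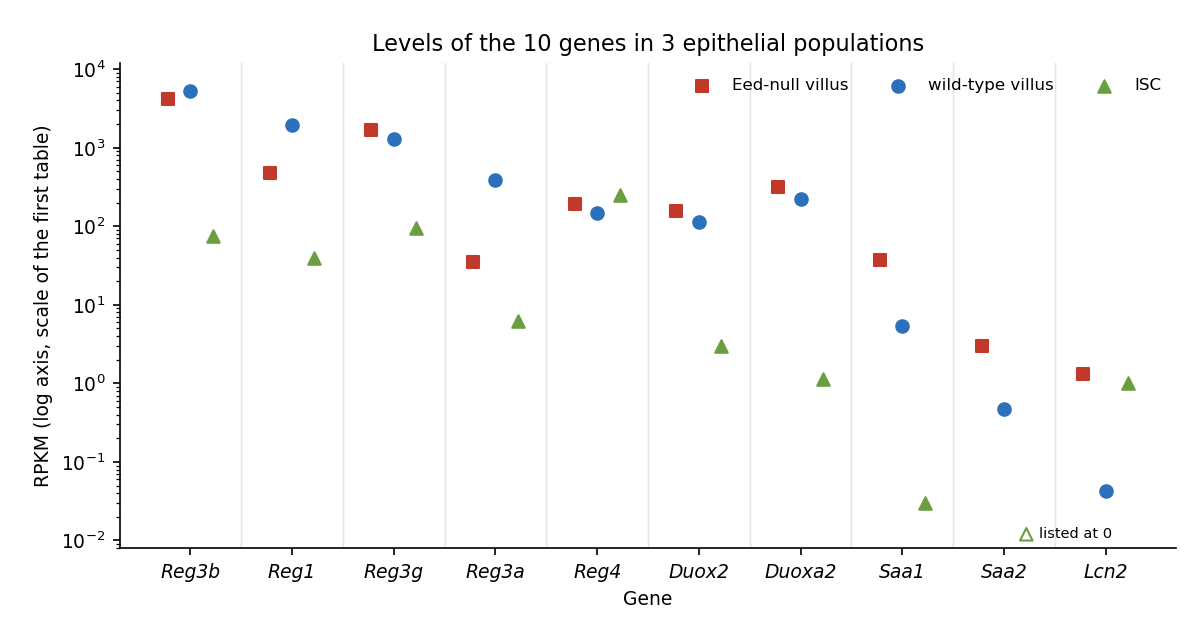
Group values of the 10 genes in RPKM on a log axis, for Eed-null villus (squares), wild-type villus (circles) and ISC (triangles), with no error bars because the tables print 1 value per group. Eed-null values were multiplied by 1.16193 to bring them to the scale of the first table; Reg1 and Reg3a lie below wild-type villus in Eed-null villus, Saa1 and Saa2 above, and the open triangle stands for Saa2, listed at 0 in ISC.

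Eed-null villus had 2 of the 10 members called higher and 2 lower, beside 7.90% higher and 3.46% lower among all 12525 genes tested. Saa1 and Saa2 were the members called higher. The median log2 ratio over the 10 members was 0.42, beside -0.08 over the 12428 tested genes with values above 0 in both groups, but the 10 ratios ran from -3.46 to 4.93 and the median describes none of them well.

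The Reg genes that fell lie among Reg genes that were not called. On build mm9, in the order of the files' coordinates along chromosome 6, the cluster runs over 98 kb as Reg3b, Reg3d, Reg3a, Reg2, Reg1 and Reg3g. Reg3b starts at 78320878 and ends at 78323460, Reg3a runs from 78330702 to 78333833, Reg1 from 78375976 to 78378660, and Reg3g from 78416261 to 78418868. Reg3a starts 9.82 kb from the start of Reg3b and Reg1 55.1 kb from it. Reg3d, between Reg3b and Reg3a, had 0.587 RPKM in Eed-null villus and 1.24 RPKM in wild-type villus (q = 0.574) in the authors' deposited table. Reg2 was not tested, at 0.0709 RPKM in Eed-null villus and 0.0549 RPKM in wild-type villus. Whether the log2 ratios of neighbouring Reg genes differ from one another was not tested, since the tables allow no such test.

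**Figure D2:**
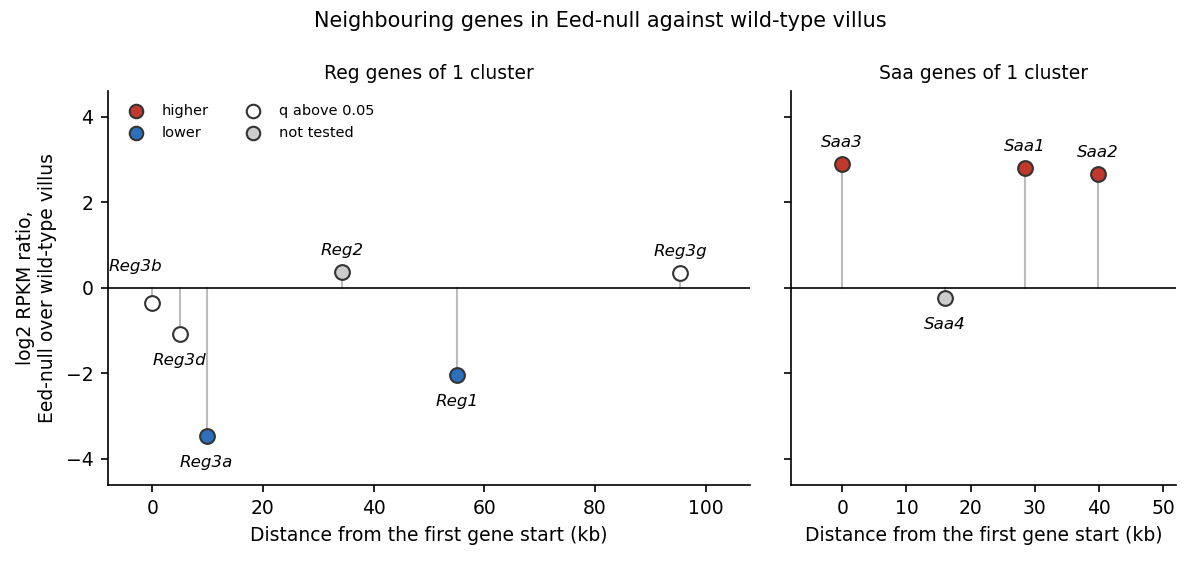
Log2 ratio of RPKM in Eed-null over wild-type villus for 6 Reg genes and 4 Saa genes, placed by the distance in kb of each gene's start from the first start of its cluster. Reg3a (-3.46) and Reg1 (-2.04) are lower and Saa3 (2.90), Saa1 (2.80) and Saa2 (2.67) higher at q at or below 0.05; open points have a larger q and grey points were not tested.

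The make-up of the Reg transcripts differed accordingly between the groups. Summed over Reg3b, Reg1, Reg3g and Reg3a, RPKM came to 5463 in Eed-null villus and 7729 in wild-type villus. Reg1 made up 7.54% of that sum in Eed-null villus and 21.9% in wild-type villus, and Reg3a 0.549% and 4.28% in the same order of groups. Reg3g took 26.4% of the sum in Eed-null villus and 14.6% in wild-type villus. Reg3b was 119 times the level of Reg3a in Eed-null villus and 13.8 times in wild-type villus. These shares are read from 1 value per group and carry no error.

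**Figure D3:**
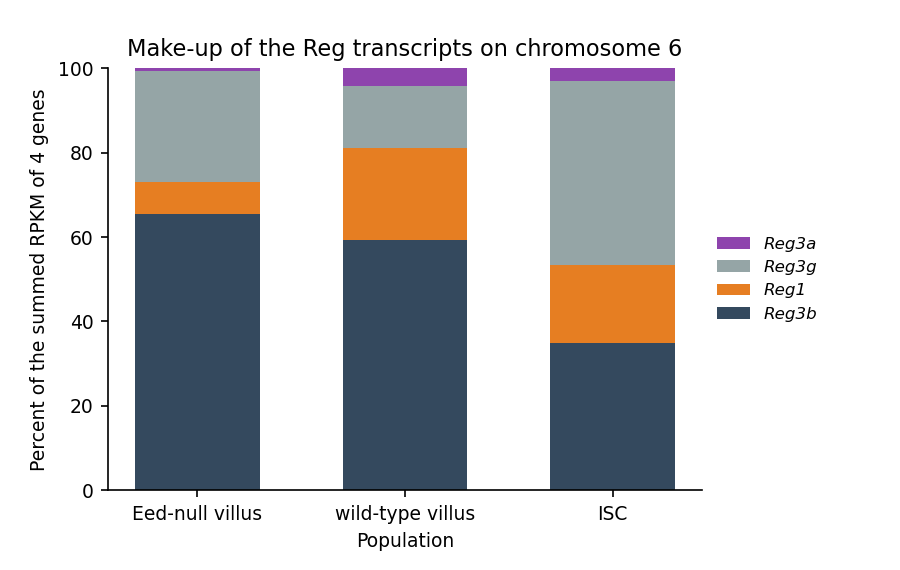
Percent of the summed RPKM of Reg3b, Reg1, Reg3g and Reg3a contributed by each gene in Eed-null villus, wild-type villus and ISC; bars are single group values with no error. Reg3b takes 65.6%, 59.2% and 34.9% of the sum in these groups, and the Reg1 share is smallest in Eed-null villus.

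Some markers of gut position were also called between the villus groups. Reg3 transcripts are known to vary along the small intestine. All 8 ileum markers reached 1 RPKM in both villus groups, although the labels place the tissue in the proximal part. Of these 8 ileum markers, all tested, 3 were called lower in Eed-null villus, none higher and 5 were not called. Among all tested genes, 3.46% were called lower and 7.90% higher. The summed level of the ileum markers was 1994 RPKM in Eed-null villus and 3324 RPKM in wild-type villus. Fabp6 had the highest level of them in wild-type villus. Fabp6, which carries bile acids inside ileal enterocytes, had 251 RPKM in Eed-null villus and 1444 RPKM in wild-type villus (q listed as 0), and Slc10a2, the ileal bile acid importer, 8.65 RPKM in Eed-null villus and 23.9 RPKM in wild-type villus (q = 9.17e-07) in the authors' deposited table. Of 8 markers of the proximal small intestine, 3 were called higher and 1 lower. Their summed level was 326 RPKM in Eed-null villus and 436 RPKM in wild-type villus. Lct, the 1 called lower, had 168 RPKM in Eed-null villus and 328 RPKM in wild-type villus. Hhex, among those called higher, lay below 0.351 RPKM in wild-type villus and was testable only through Eed-null villus. The part of gut position in the Reg results was not tested. Reg genes are also strongly expressed in pancreatic acinar cells. Of 18 acinar markers, 7 were listed at 0 in Eed-null villus and 11 in wild-type villus, Ptf1a, Prss1 and Amy2a5 among them in both groups. Clps, a lipase cofactor, was the only one of the 6 tested that was called, at 171 RPKM in Eed-null villus and 99.8 RPKM in wild-type villus. Rnase1 had 10.1 RPKM in Eed-null villus and 8.77 RPKM in wild-type villus, and Cela1 4.35 RPKM in Eed-null villus and 5.06 RPKM in wild-type villus. Zg16, also on the goblet list, had 5723 RPKM in Eed-null villus and 5254 RPKM in wild-type villus. The part of acinar RNA in the Reg results was not tested.

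Saa1, Saa2 and Saa3 were each called higher in Eed-null villus. Saa1 had 32.4 RPKM in Eed-null villus and 4.66 RPKM in wild-type villus, 6.97-fold higher with q = 1.43e-10 in the authors' deposited table. Saa2 had 2.59 RPKM in Eed-null villus and 0.409 RPKM in wild-type villus, 6.35-fold higher with q = 0.00513 in the authors' deposited table. Saa3, a further acute-phase gene of the cluster and no member here, was 7.46-fold higher, at 9.39 RPKM in Eed-null villus and 1.26 RPKM in wild-type villus (q = 1.62e-06) in the authors' deposited table. Saa4 was not tested, at 0.103 RPKM in Eed-null villus and 0.122 RPKM in wild-type villus. On mm9 the cluster spans 42.3 kb of chromosome 7, with Saa1 between 53995868 and 53998350 and Saa2 between 54007202 and 54009684. Saa1 was 12.5 times the level of Saa2 in Eed-null villus and 11.4 times in wild-type villus, with the limit on near-identical copies given above.

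Lcn2 was low everywhere and just missed the threshold. It had 1.14 RPKM in Eed-null villus and 0.0373 RPKM in wild-type villus, a log2 difference of 4.93 with q = 0.0507 in the authors' deposited table. Every gene tested in that table reached 0.351 RPKM in its higher group, so Lcn2 entered the test only through its level in Eed-null villus. When p was adjusted without genes that share a locus entry, the adjusted p of Lcn2 was 0.0460. When p was adjusted over genes at 1 RPKM or more in a group, it was 0.0535. The gene lies between 32240156 and 32243259 on chromosome 2 of mm9. Neutrophils also make Lcn2. Of 9 neutrophil markers in the table, 3 were tested and none was called, where 7.90% of all tested genes were called higher and 3.46% lower. The summed level of the 9 markers was 3.01 RPKM in Eed-null villus and 2.23 RPKM in wild-type villus. S100a9 had 1.20 RPKM in Eed-null villus and 0.721 RPKM in wild-type villus. Cxcr2 had 0.901 RPKM in Eed-null villus and 0.783 RPKM in wild-type villus. S100a8 had 0.585 RPKM in Eed-null villus and 0.459 RPKM in wild-type villus. These levels were of the order of Lcn2 in Eed-null villus, and above the 0.0373 RPKM of Lcn2 in wild-type villus. Ngp, Mpo and Elane were listed at 0 in both groups. The part of neutrophils in the Lcn2 values was not tested.

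Duox2 and Duoxa2 kept nearly the same ratio to each other in both villus groups and neither was called. Duox2 had 136 RPKM in Eed-null villus and 98.4 RPKM in wild-type villus, a log2 difference of 0.46 with q = 0.323 in the authors' deposited table. Duoxa2 had 269 RPKM in Eed-null villus and 193 RPKM in wild-type villus, a log2 difference of 0.48 with q = 0.273 in the authors' deposited table. Duoxa2 was 1.98 times the level of Duox2 in Eed-null villus and 1.97 times in wild-type villus. They are direct neighbours on chromosome 2 of mm9, Duox2 from 122106172 to 122123901 and Duoxa2 from 122124635 to 122128621. Their relatives Duoxa1 and Duox1 follow in the same stretch and stayed below 1 RPKM. Duoxa1 had 0.687 RPKM in Eed-null villus and 0.321 RPKM in wild-type villus (q = 0.277 in the authors' deposited table), and Duox1 was not tested.

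**Figure D4:**
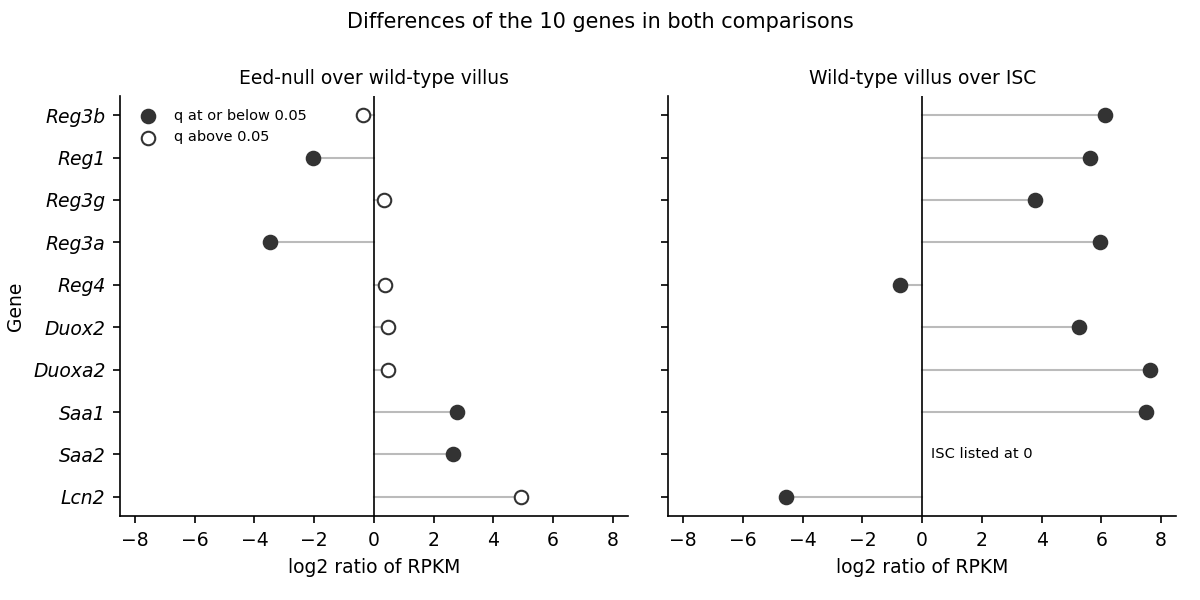
Log2 ratio of RPKM for the 10 genes, Eed-null over wild-type villus on the left and wild-type villus over ISC on the right; filled points have q at or below 0.05 and open points a larger q. On the left 4 genes are filled, and on the right all genes with a ratio are filled, with Reg4 (-0.75) and Lcn2 (-4.55) to the left of 0 and no ratio for Saa2, which is listed at 0 in ISC.

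In wild-type villus against ISC, 8 of the 10 members were called higher and 2 lower, beside 30.5% higher and 32.3% lower among all 13007 genes tested. The median log2 ratio of the 9 members with values above 0 in both groups was 5.62, beside -0.10 over the 12846 tested genes with such values and 6.18 over the 9 tested enterocyte markers. Reg3b had 5321 RPKM in wild-type villus and 75.8 RPKM in ISC, 70.2-fold higher in villus with q listed as 0 in the authors' deposited table. Reg3a was 61.6-fold higher in villus, at 384 RPKM against 6.24 RPKM in ISC, and Reg1 49.2-fold higher, at 1969 RPKM against 40.0 RPKM in ISC, both with q listed as 0 in the authors' deposited table. Reg3g was 13.7-fold higher, at 1307 RPKM in wild-type villus and 95.2 RPKM in ISC, again with q listed as 0 in the authors' deposited table. Among these 4 lectins of chromosome 6, Reg3g was thus the most abundant in ISC, below Reg4 of chromosome 3 at 248 RPKM. Reg3b had 0.796 times the level of Reg3g in ISC, and 4.07 times in wild-type villus. Whether this order differs beyond the spread between libraries could not be tested.

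The oxidase pair was far higher in villus. Duoxa2 had 225 RPKM in wild-type villus and 1.14 RPKM in ISC, and was 196-fold higher in villus. Duox2 was 37.9-fold higher, with 114 RPKM in wild-type villus and 3.01 RPKM in ISC, both with q listed as 0 in the authors' deposited table. Duoxa2 was 0.380 times the level of Duox2 in ISC, unlike in both villus groups. The serum amyloid genes were low in wild-type villus and lower in ISC. Saa1 had 5.41 RPKM in wild-type villus and 0.0302 RPKM in ISC (q = 0.000763), and Saa2 0.475 RPKM in wild-type villus and is listed at 0 in ISC (q = 0.0260) in the authors' deposited table. A value of 0 in these tables can be a failed estimate, so no fold is given for Saa2.

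Reg4 and Lcn2 went the other way. Reg4 had 147 RPKM in wild-type villus and 248 RPKM in ISC, 1.68-fold lower in villus (q = 0.00307 in the authors' deposited table). The gene runs from 98026078 to 98040671 on chromosome 3 of mm9. Secretory cell markers were called in both directions, where 30.5% of all tested genes were called higher in wild-type villus and 32.3% lower. Of 10 enteroendocrine markers, 3 were called higher and 5 lower in wild-type villus, and of 8 goblet markers 2 higher and 3 lower. Of 10 Paneth markers, 7 were tested and all 7 were called lower in wild-type villus, while Lyz1, Defa17 and Defa24 are listed at 0 in ISC with the status HIDATA, which marks loci with too many reads, and were not tested. The summed levels in wild-type villus and ISC were 511 and 318 RPKM for enteroendocrine markers and 12613 and 5697 RPKM for goblet markers. Within the goblet sum, Zg16 alone had 6105 RPKM in wild-type villus and 165 RPKM in ISC. The part of secretory cells in the Reg4 result was not tested. Lcn2 had 0.0433 RPKM in wild-type villus and 1.02 RPKM in ISC, with q = 0.0213 in the authors' deposited table. Tested genes of this table reached at least 0.246 RPKM in their higher group. Lcn2 was therefore testable only through ISC, and Saa1 and Saa2 only through villus, so their directions were fixed by their entry into the test. The enteroendocrine marker Nts, at 0.205 RPKM in ISC, was likewise testable only through villus.

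Setting Eed-null villus on the scale of the first table placed each member in a row of 3 levels, with no test across tables because they were normalized separately. The wild-type villus values of both tables differ by a constant factor of 1.16193 over 10583 genes at 1 RPKM or more. On that scale Reg3a had 34.9 RPKM in Eed-null villus, 384 RPKM in wild-type villus and 6.24 RPKM in ISC, so the lowered level was still 5.58 times that of ISC. Reg1 had 478 RPKM in Eed-null villus, 11.9 times its level in ISC. Saa1 had 37.7 RPKM in Eed-null villus, above both other groups. Lcn2 had 1.32 RPKM in Eed-null villus, close to its 1.02 RPKM in ISC and above its 0.0433 RPKM in wild-type villus. Reg4 was the member whose levels differed least between the groups, at 190 RPKM in Eed-null villus, 147 RPKM in wild-type villus and 248 RPKM in ISC.

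Genes of the interleukin 22 pathway, which feeds the Reg3 genes and Saa genes, included 2 that rose in Eed-null villus. Of 13 genes, 11 were tested, 2 were called higher and none lower, where 7.90% of all tested genes were called higher and 3.46% lower. The median log2 ratio of 0.18 stood beside -0.08 over all tested genes. Fut2, a fucosyltransferase of the epithelial surface, was 9.12-fold higher, at 33.1 RPKM in Eed-null villus and 3.63 RPKM in wild-type villus (q listed as 0 in the authors' deposited table). Socs3, the feedback inhibitor of STAT3 signalling, was 2.35-fold higher, at 48.0 RPKM in Eed-null villus and 20.4 RPKM in wild-type villus (q = 7.42e-06), in the authors' deposited table. The receptor chains Il22ra1 and Il10rb and Stat3 itself were not called. Il22ra1 had 49.8 RPKM in Eed-null villus and 43.9 RPKM in wild-type villus (q = 0.769), and Stat3 34.2 RPKM in both groups (q = 0.999), in the authors' deposited table. Il22 is listed at 0 in all 3 groups and Il17a in both villus groups.

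The same pathway was higher in wild-type villus than in ISC in 8 of 12 tested genes and lower in 2, beside 30.5% and 32.3% of all tested genes. Il6ra, among those called lower, lay below 0.246 RPKM in wild-type villus and was testable only through ISC. Il10rb was 9.50-fold higher, at 110 RPKM in wild-type villus and 11.5 RPKM in ISC, and Il22ra1 8.38-fold higher, at 51.0 RPKM in wild-type villus and 6.09 RPKM in ISC, both with q listed as 0 in the authors' deposited table. Stat3 was 4.27-fold higher (q = 6.88e-13), at 39.8 RPKM in wild-type villus and 9.32 RPKM in ISC, and Il18, an epithelial cytokine, 18.4-fold higher with q listed as 0 in the authors' deposited table.

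For receptors and regulators of the interleukin 17, Toll-like receptor and NF-kB pathways, the counts lay near those of all genes. Of 28 genes, 24 were tested in Eed-null against wild-type villus, with 2 called higher and 1 lower, beside 7.90% and 3.46% of all tested genes. Tlr2, a receptor of bacterial lipoproteins, was 4.61-fold higher at 1.37 RPKM in Eed-null villus and 0.298 RPKM in wild-type villus (q = 9.4e-05), and Cxcl5, a chemokine that draws neutrophils, 0.433 RPKM in Eed-null villus against a listed 0 in wild-type villus (q = 0.00404), in the authors' deposited table. Both lay below 0.351 RPKM in wild-type villus and were testable only through Eed-null villus. Il17rc, a receptor chain for interleukin 17, was 1.86-fold lower, at 34.7 RPKM in Eed-null villus and 64.8 RPKM in wild-type villus (q = 0.00142), in the authors' deposited table. In wild-type villus against ISC, 7 of 23 tested genes of this list were called higher and 5 lower, with 30.5% higher and 32.3% lower among all tested genes. Cxcl1, among those called lower, lay below 0.246 RPKM in wild-type villus and was testable only through ISC. The called genes include the chemokine Ccl25 at 594 RPKM in wild-type villus and 159 RPKM in ISC (q = 1.83e-14), the adaptor Ticam1, 4.66-fold higher with q listed as 0, and the peptidoglycan sensor Nod1, at 0.618 RPKM in wild-type villus and 3.73 RPKM in ISC (q = 1.87e-10), in the authors' deposited table.

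Other acute-phase and iron-withholding genes rose in Eed-null villus where they were called. Of 13 listed genes, 8 were tested, 4 were called higher and none lower, beside 7.90% and 3.46% of all tested genes. Saa3, already given above, is among the 4. Ltf, the iron-binding lactoferrin, was 30.0-fold higher, at 7.58 RPKM in Eed-null villus and 0.253 RPKM in wild-type villus (q listed as 0 in the authors' deposited table). Slc22a17, a receptor for Lcn2, had 0.720 RPKM in Eed-null villus and 0.0505 RPKM in wild-type villus (q = 0.000403), and Nos2, the inducible nitric oxide synthase, 7.08 RPKM in Eed-null villus and 3.95 RPKM in wild-type villus (q = 0.0256), in the authors' deposited table. Ltf and Slc22a17 lay below 0.351 RPKM in wild-type villus and could be tested only because they were higher in Eed-null villus. The same holds for Hp, Hamp, Lbp and Slc11a1, which were tested and not called. Of the 8 tested genes, only Saa3 and Nos2 could have been called lower. For the others the direction was fixed by their entry into the test, so the count favours higher calls.

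Among other secreted and surface defence products, 7 of 19 tested genes were called higher in Eed-null villus and none lower, beside 7.90% and 3.46% of all tested genes. Retnlb, a bactericidal resistin-like protein of goblet cells, was 20.1-fold higher, at 154 RPKM in Eed-null villus and 7.66 RPKM in wild-type villus, and Mptx1, a mucosal pentraxin, 5.75-fold higher, at 686 RPKM in Eed-null villus and 119 RPKM in wild-type villus, both with q listed as 0 in the authors' deposited table. The antiprotease genes Slpi and Wfdc2 had 3.39 and 3.46 RPKM in Eed-null villus against 0.278 and 0.114 RPKM in wild-type villus (q = 1.46e-05 for Slpi and 0.000595 for Wfdc2) in the authors' deposited table, and both also lay below the 0.351 RPKM limit in wild-type villus. The remaining calls were Sprr1a, Muc2 and Mptx2. Abundant products such as Zg16, a lectin-like protein that aggregates bacteria, were not called, with 5723 RPKM in Eed-null villus and 5254 RPKM in wild-type villus (q = 0.916) in the authors' deposited table. Goblet markers moved beside Retnlb: 4 of 8, Muc2 being 1 of the 4, were called higher and none lower, with a summed level of 15789 RPKM in Eed-null villus and 10856 RPKM in wild-type villus, and their part in the Retnlb result was not tested.

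In wild-type villus against ISC, 11 of 20 tested genes of that list were called higher and 5 lower, beside 30.5% and 32.3% of all tested genes. The galectin gene Lgals3 was 82.5-fold and Zg16 37.0-fold higher in villus, both with q listed as 0, whereas Dmbt1, a scavenger receptor of the mucosa, was 4.61-fold lower at 98.7 RPKM in wild-type villus and 455 RPKM in ISC (q = 4e-06), in the authors' deposited table. Wfdc2 had 0.133 RPKM in wild-type villus and 4.61 RPKM in ISC (q = 5.07e-05) in the authors' deposited table. Tested genes of this comparison reached at least 0.246 RPKM in their higher group. Wfdc2 and Muc1 were therefore testable only through ISC, and Sprr2a1 and Sprr1a only through villus. The directions of these calls were fixed by their entry into the test.

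**Figure D5:**
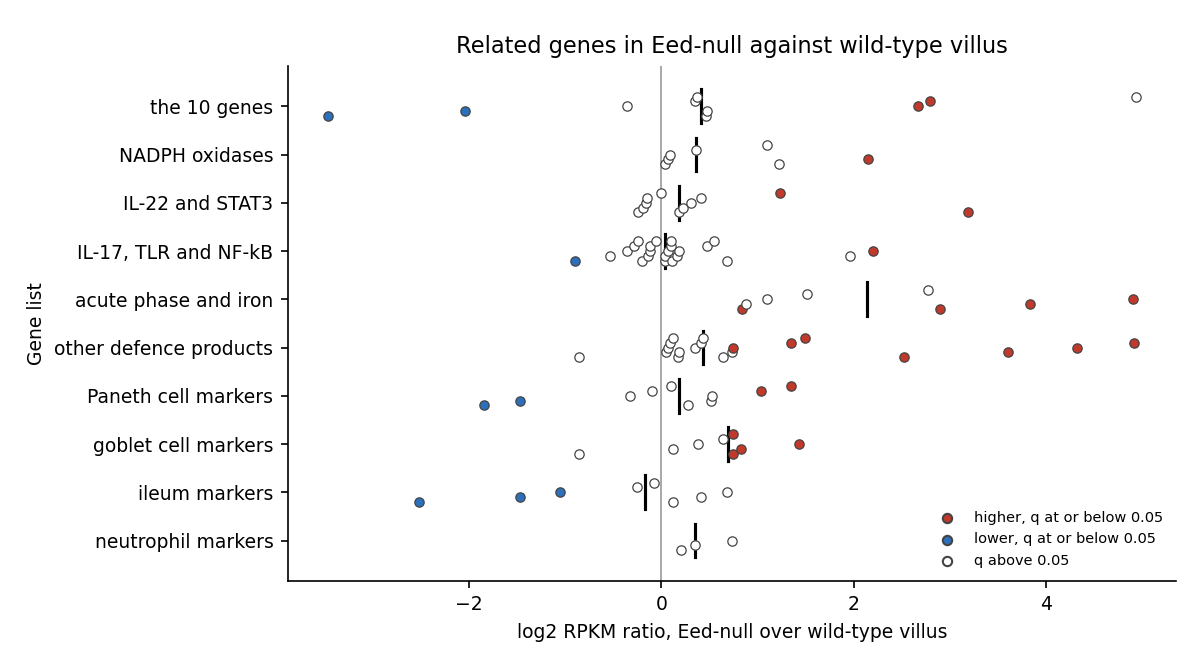
Log2 ratio of RPKM in Eed-null over wild-type villus for each tested gene with values above 0 in both groups, by gene list; red points were called higher, blue points lower, and black bars mark the median of the points shown. The 10 genes spread from -3.46 to 4.93, and among ileum markers all 3 called genes lie below 0; Cxcl5, listed at 0 in wild-type villus, has no ratio and is not drawn.

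NADPH oxidase genes outside the Duox2 pair were divided between villus and ISC. Of 9 genes, 5 were tested, with 1 called higher and 3 lower in wild-type villus, beside 30.5% and 32.3% of all tested genes, and Cyba was not called. Nox1, Noxo1 and Noxa1, the catalytic, organizer and activator subunits of the epithelial superoxide-producing oxidase, were called lower in wild-type villus. Nox1 had 0.823 RPKM in wild-type villus and 5.40 RPKM in ISC (q = 3.12e-09), and Noxo1 12.2 RPKM in wild-type villus and 29.5 RPKM in ISC (q = 4.26e-07), in the authors' deposited table. Noxa1 had 5.43 RPKM in wild-type villus and 39.2 RPKM in ISC (q = 0.00357 in the authors' deposited table), but it shares its locus entry with another gene. Rac1, their small GTPase partner, was 2.06-fold higher in wild-type villus (q = 2.64e-05 in the authors' deposited table). In Eed-null against wild-type villus, 1 of 7 tested genes of this list was called, beside 7.90% higher among all tested genes. It was Cybb, the oxidase subunit of phagocytes, at 0.398 RPKM in Eed-null villus and 0.0895 RPKM in wild-type villus (q = 0.00426) in the authors' deposited table, and it was testable only through its level in Eed-null villus. Nox1 had 1.65 RPKM in Eed-null villus and 0.708 RPKM in wild-type villus (q = 0.0673) in the authors' deposited table. Macrophage and monocyte markers, beside Cybb, had a summed level of 27.8 RPKM in Eed-null villus and 17.5 RPKM in wild-type villus, with none of 6 tested called, and their part in the Cybb result was not tested.

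The members called in both comparisons with values above 0 throughout were Reg1, Reg3a and Saa1, and the genes of most similar profile were found for each by the Euclidean distance between the log2 ratios of both comparisons, over 11960 genes tested in both tables. Both ratios contain wild-type villus, so the profile rests on 3 group levels. Nearest to Reg1 were Tnfaip8l2 (distance 0.14), Slc6a20b (0.20) and Bcl2l15 (0.59). Nearest to Reg3a were Plb1 (0.61), a brush-border phospholipase, Dnase1 (1.32) and Vwa1 (1.33). Nearest to Saa1 were Mbl2 (0.57), the gene of a circulating mannose-binding lectin, Npl (0.79) and 9030619P08Rik (0.97). Tested genes of villus against ISC reached at least 0.246 RPKM in their higher group. In ISC, Saa1 (0.0302 RPKM), Mbl2 (0.164), Npl (0.203) and 9030619P08Rik (0.0213) lay below that limit. So did Tnfaip8l2 (0.156 RPKM) and Slc6a20b (0.0414) near Reg1. These genes were testable there only through villus, so their distances rest on very low ISC values. Mbl2 had 125 RPKM in Eed-null villus and 26.5 RPKM in wild-type villus (q listed as 0 in the authors' deposited table). Tnfaip8l2 and Dnase1 share locus entries with other genes.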

How the data were processed

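The series holds 23 libraries. The 9 RNA libraries gave the data used here, and the 14 chromatin immunoprecipitation and input libraries were not analysed here. Libraries were made with a TruSeq V2 kit, whose reads carry no strand information, and sequenced single-end for 75 bp, per the labels' protocols. Per the submitters' processing notes, the build was mm9 and the tools included Bowtie, TopHat2 2.0.6, Cuffdiff and Cufflinks 2.0.1, with no role or annotation stated.

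RPKM values were computed by the authors, 1 per group, per the header of the first table; the second has no unit in its header, and RPKM was taken because its wild-type villus values are a constant multiple of those in the first (1.16192 to 1.16194 over 10583 genes). The p-value and q-value per gene are those deposited by the authors, and a Benjamini-Hochberg adjustment of p over tested genes (status OK) gave q to within 8.02e-05. The tables print no value per library and no test statistic, so no model was fitted, no standard error could be derived, and depth is unknown. Libraries of a group are biological replicates, per the labels.

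Folds divide 1 deposited group value by the other, without a pseudocount. Calls required status OK and q at or below 0.05. Tests stayed within a table. Alternatives were q at or below 0.01, a 2-fold minimum, adjustment over genes at 1 RPKM or more, adjustment without genes sharing a locus entry, pseudocounts of 1 and 0.1, and recentring. The adjustment and the call rule were tested on simulated data. Named genes are all members, Reg2, Reg3d, Eed, up to 4 called genes of each pathway list with the largest difference of log2(RPKM + 1), and the 3 nearest profiles; Saa4, Duox1, Duoxa1, Stat3, Il22ra1, Il22, Il17a, Zg16, Nox1, Il10rb and the other marker and list genes printed beside results were named after their values were seen. The members and lists were chosen with earlier results of these data known. Coordinates of genes are those of the files on mm9, whose start convention is not stated. Sequences come from a RefSeq promoter table on GRCm38.p6 and were aligned with Biopython 1.88. Python 3.11.15 was used.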

Additional observations from a re-analysis of the deposited data

How the results depend on the processing

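No paired analysis was possible because the tables print 1 value per group, and for the same reason no replicate could be left out. The pseudocounts and recentring use the deposited q unchanged, so they cannot move a member across the threshold. Members called lower in wild-type villus against ISC numbered 1 in place of 2 at q at or below 0.01, where Lcn2 (q = 0.0213) was lost, and 1 with a 2-fold minimum, where Reg4 was lost. Members called higher in that comparison numbered 7 in place of 8 at q at or below 0.01, which Saa2 missed with q = 0.0260, and 7 when p was adjusted over genes at 1 RPKM or more, which leaves Saa2 out. Members called higher in Eed-null villus numbered 3 in place of 2 when p was adjusted without genes sharing a locus entry, where Lcn2 was added. The median log2 ratio of the members between wild-type villus and ISC was 5.62, against 4.84 with a pseudocount of 1 and 5.40 with 0.1. Between Eed-null and wild-type villus it was 0.42, against 0.52 after recentring by the -0.10 median over genes that reached 1 RPKM in each group; no member changed direction. Over all genes, 433 were called lower in Eed-null villus, against 258 at q at or below 0.01 and 216 with a 2-fold minimum. Depth is unknown, so the limit it sets on low genes such as Lcn2, Saa2 and Reg3d cannot be stated.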

Other observations

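Products of Paneth cells, which like enterocytes release Reg3b and Reg3g, were called in both directions in Eed-null villus. Of 10 markers, all tested, 2 were called higher, 2 lower and 6 were not called, beside 7.90% higher and 3.46% lower among all tested genes. Ang4, an antimicrobial ribonuclease, had 1852 RPKM in Eed-null villus and 903 RPKM in wild-type villus (q = 0.00202), and Mptx2, a mucosal pentraxin, 345 RPKM in Eed-null villus and 135 RPKM in wild-type villus (q = 4.82e-07), in the authors' deposited table. The alpha-defensin genes Defa21 and Defa22 were lower, at 50.9 and 69.4 RPKM in Eed-null villus against 182 and 192 RPKM in wild-type villus (q = 1.28e-05 for Defa21 and 1.57e-05 for Defa22) in the authors' deposited table. Defensin genes are near-identical copies, so their separate values are uncertain. Among goblet cell markers, Spink4, a secreted protease inhibitor, was 2.69-fold higher at 3242 RPKM in Eed-null villus and 1204 RPKM in wild-type villus (q = 2.7e-07), and Agr2, a disulfide isomerase of mucin folding, 1.78-fold higher (q = 0.00534), in the authors' deposited table. Among lymphocyte markers, none of 7 tested genes was called higher and Gzmb, a granzyme, was called lower, at 10.6 RPKM in Eed-null villus and 18.7 RPKM in wild-type villus (q = 0.0237) in the authors' deposited table. No tuft cell marker of 6 tested was called between these groups at q at or below 0.05.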
